A study of Homo sapiens with 80 samples.

Results

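The response of human Jurkat T cells to a short heat shock was measured by RNA sequencing in 8 of the 80 libraries of a study on hypergravity. The members were taken by their labels, 4 heat libraries (numbered 65 to 68) and the 4 uncentrifuged control libraries of the same experiment (numbered 49 to 52). Jurkat E6-1 is an established line of CD4+ T cells from an acute leukemia, and it was the only line used. Heat tubes were rotated in a water bath at 42 °C, in which the medium reached 40 °C after 1 min, and were kept there for 5 min before lysis. Control tubes were lysed directly. Neither group was centrifuged, so both were at 1 g, and no control tube was rotated in a cooler bath, so warming and handling in the bath cannot be told apart. The remaining libraries held cells centrifuged at 9 g or 300 g and their controls. Of these, cells that had 5 min of centrifugation at 300 g and were lysed after a wait of 1 min (wait1min) were used for comparison because they were lysed within the same experiment and after a similar time. Their titles give the 1 min wait, whereas the deposited column names read instant for these libraries. Cells with 5 min at 9 g (hypg5) and their own controls gave side values. The 300 g groups with waits of 4 and 15 min entered only the alternative with 5 groups in 1 model. No label says that the 4 libraries of a group came from separate cultures, so the p-values measure the spread between these libraries only.

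Heat unfolds proteins, and the transcription factor HSF1 then forms trimers that bind inverted repeats of the bases GAA near the start of chaperone genes, which releases RNA polymerase II that waits there. Chaperones of the HSP70, HSP90, J-domain and small heat shock protein families refold or hold unfolded proteins. At most other genes heat is known to lower transcription, and it is also known to disturb splicing and the ending of transcripts. The libraries were made from total RNA after removal of ribosomal RNA, so that RNA without a poly(A) tail and unfinished transcripts were counted with mature mRNA.

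The control libraries held 28665290 to 41220541 counted read pairs in genes and the heat libraries 29165509 to 31175548. Values are given as CPM, the counts per 1000000 counts of the library after TMM scaling, for which the factors were 0.985 to 1.00 in control and 0.993 to 1.02 in heat libraries. All 14 T-lineage markers had counts, with a summed level of 4520 to 4642 CPM in control and 4366 to 4596 CPM in heat libraries. The 8 myeloid markers summed to 12.8 to 13.2 CPM in control and 12.4 to 14.6 CPM in heat libraries, with CSF1R at 0. The 7 B cell markers summed to 94.3 to 97.5 CPM and 89.2 to 99.7 CPM. Erythroid and epithelial markers summed to less than 1 CPM in every library, and ALAS2, EPCAM, KRT5, CDH1 and KRT19 were at 0. In bulk RNA a lower level in every cell and a lower number of cells with the RNA cannot be told apart, which applies to every result given here.

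Heat changed many genes by a little, and the larger changes were nearly all increases. By edgeR's quasi-likelihood test with Benjamini-Hochberg adjustment, 3461 of the 16655 genes tested (20.8%) passed an adjusted p of 0.05 and are called differentially expressed. Of these, 1770 genes were upregulated (10.6%) and 1691 downregulated (10.2%). An increase past a log2 fold change of 1 was found for 379 genes (2.28%) and a decrease past -1 for 7 genes (0.042%), while the median over all genes tested was 0.01. The number past -1 was 17 without control library 50 or heat library 66, 13 without control library 49 or heat library 68, 11 without heat library 65 or 67 and 8 without control library 51 or 52. The upregulated share of all calls was 51.1% with TMM scaling, 65.8% with total counts alone, 65.4% with upper quartile factors and 27.2% when the 300 g groups entered the same model, so the balance of directions depended on the scaling and on the groups in the model. Every gene called both with TMM and under another setting kept its sign. Downregulated genes were to 94.6% nuclear protein-coding genes, which made up 73.7% of the genes tested. Upregulated genes were to 50.2% protein-coding and to 37.7% long noncoding RNAs (lncRNAs) or transcripts of uncertain status (TEC), which were 16.7% of the genes tested.

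The heat shock genes themselves changed in both directions. Among the 69 tested of 78 listed chaperone and heat shock factor genes, 7 were upregulated (10.1%) and 11 downregulated (15.9%), against 10.6% and 10.2% of all genes, and their median log2 fold change was -0.02 against 0.01. The largest increase was that of HSPB6 (chr19:35754566-35758079, minus strand, hg38), a small heat shock protein also known as HSP20. Its level was 0.068, 0.354, 0.295 and 0.137 CPM in the control libraries and 1.75, 1.41, 1.91 and 1.69 CPM in the heat libraries. Every heat library was far above every control library, although the gene was rare, with 2 to 12 read pairs in a control library and 42 to 59 in a heat library. It passed the filter on low counts only through the heat libraries, where it is high, so a gene of this kind had to differ to be tested. The log2 fold change was 2.93 ± 0.28 (SE, n = 4 against 4) with an adjusted p of 2.4e-06 by edgeR's quasi-likelihood test.

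HSPA6 (chr1:161524540-161526894, plus strand) encodes an HSP70 that is made almost only under stress. It stood at 0.646, 0.921, 0.565 and 0.685 CPM in control libraries and 1.91, 1.38, 1.36 and 1.86 CPM in heat libraries, with no overlap. Its log2 fold change was 1.23 ± 0.20 (SE) with an adjusted p of 3.77e-04 by the same edgeR test. HSPA1B (chr6:31827738-31830254, plus strand), the main inducible HSP70, was measured with more reads. It rose from 15.5, 17.8, 15.6 and 16.2 CPM to 26.8, 24.8, 23.7 and 25.1 CPM. The increase was 0.63 ± 0.06 on the log2 scale (SE, adjusted p = 2.41e-06, edgeR). Its near-identical copy HSPA1A had only 0.24 to 0.425 CPM in control and 0.362 to 0.507 CPM in heat libraries and was not called (log2 fold change 0.44, adjusted p = 0.30, edgeR), and because the copies share most reads, the split between them is uncertain.

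Smaller increases were found for abundant members. HSP90AA1, the inducible cytosolic HSP90, had 547, 454, 491 and 443 CPM in control libraries and 560, 563, 558 and 580 CPM in heat libraries. The groups did not overlap, but control library 49 lay close to the heat libraries, and the log2 fold change was 0.23 ± 0.05 (SE, adjusted p = 0.00359, edgeR). DNAJB1, the J-domain partner of inducible HSP70, rose by 0.17 on the log2 scale, from between 160 and 171 CPM to between 180 and 192 CPM. HSPE1, the lid of the mitochondrial chaperonin, was called at 0.34 although its heat libraries (63.0 to 84.9 CPM) overlapped the control libraries (47.2 to 66.2 CPM), and the call was lost without control library 50, without heat library 68 and in DESeq2. HSF2BP, which binds HSF2, was called at 0.31, a call lost without control library 51, control library 52 or heat library 67.

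The 11 downregulated members included partners of the upregulated ones. HSPH1, an HSP110 that recharges HSP70, had 114, 96.3, 102 and 89.6 CPM in control libraries and 78.3, 78.1, 78.8 and 87.7 CPM in heat libraries. All heat libraries were lower, with heat library 68 just under control library 52, and the log2 fold change was -0.32 ± 0.06 (SE, adjusted p = 0.00119, edgeR). BAG3, a co-chaperone that couples HSP70 to autophagy, fell from between 38.3 and 43.7 CPM to between 35.3 and 36.8 CPM (log2 fold change -0.22). HSPD1, the mitochondrial chaperonin itself, lies on the strand opposite HSPE1 and fell by 0.23 on the log2 scale, from 597 to 643 CPM down to 488 to 550 CPM. The J-domain protein DNAJB5 and the HSP90 co-chaperones FKBP5, PPID and ST13 had log2 fold changes of -0.24, -0.24, -0.23 and -0.16. The call of PPID was lost without control library 51. The other 4, DNAJC5, DNAJB6, TCP1 and STIP1, lay between -0.12 and -0.08, and the calls of DNAJB6, TCP1 and STIP1 were lost under 4 or more of 17 alternatives. Without control library 51 the number of downregulated members was 7, and with the 300 g groups in the same model it was 28. With total counts alone or upper quartile factors 8 members were higher and 8 lower.

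The remaining 51 tested members were not called. They included the constitutive HSP70 HSPA8 (log2 fold change -0.05), the constitutive HSP90 HSP90AB1 (-0.05), the J-domain protein DNAJA1 (-0.03), the collagen chaperone SERPINH1 (-0.09), HSF1 (0.03) and HSF2 (0.05). Of the members not tested for low counts, HSPA1L, DNAJA4 and CRYAB had at most 4 read pairs in a heat library, HSPB2, HSPB7, HSPB8 and CRYAA had none, and HSF5 had 5 to 12.

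**Figure D1:**
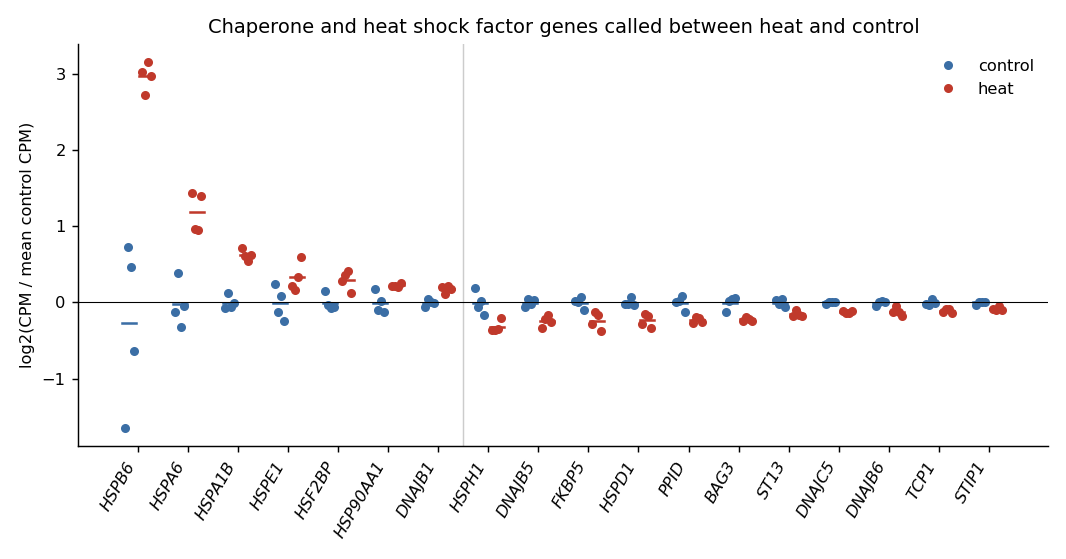
CPM of each library relative to the mean of the control libraries, on a log2 scale, for the 18 chaperone and heat shock factor genes that were called. Points are the 4 control and 4 heat libraries and short bars their means, with upregulated genes left and downregulated genes right of the vertical line; only HSPB6, HSPA6 and HSPA1B moved by more than 0.5 on the log2 scale.

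The binding repeats of HSF1 were looked for in the 250 bases before to 50 bases after the RefSeq start of each gene (GRCh38.p14), which were found by symbol for 10894 of the genes tested and for 60 of the 69 chaperone genes. A pair of inverted units was searched as GAA and TTC, in either order and with 2 free bases between them, and a run of 3 units as GAA, TTC and GAA or TTC, GAA and TTC with the same spacing. Both patterns were looked for on both strands, and each run of 3 units contains pairs. They are shown for the 3 chaperone genes with the largest increases, for HSPA1A as the near-identical copy of HSPA1B, and for genes with the longer run that were not upregulated, with the matched bases in capitals and 12 bases on either side, in the direction of transcription. For HSPB6, HSPA8, SERPINH1 and DNAJB6 the RefSeq start lies inside the gene interval of the count table, as do the matches shown, so that these windows are not upstream of the whole gene as counted. HSPB6 has a second pair and HSPA8 a second run that are not marked. The second pair of HSPB6 begins in the lower-case bases after the marked one.
HSPB6, chr19:35757220-35757251, minus strand: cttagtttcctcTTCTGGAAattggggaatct
HSPA6, chr1:161524454-161524490, plus strand: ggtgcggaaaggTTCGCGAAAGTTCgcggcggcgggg
HSPA1B, chr6:31827621-31827652, plus strand: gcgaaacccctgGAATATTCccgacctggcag
HSPA1A, chr6:31815425-31815456, plus strand: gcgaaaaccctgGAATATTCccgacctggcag
HSPA8, chr11:123062167-123062203, minus strand: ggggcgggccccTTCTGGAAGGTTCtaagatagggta
SERPINH1, chr11:75562165-75562201, plus strand: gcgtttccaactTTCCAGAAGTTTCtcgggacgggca
CHORDC1, chr11:90223075-90223121, minus strand: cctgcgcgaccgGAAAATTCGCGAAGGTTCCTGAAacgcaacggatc
DNAJB6, chr7:157336861-157336897, plus strand: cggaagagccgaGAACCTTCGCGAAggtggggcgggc

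The run of 3 units stood in the promoters of 6 of the 60 chaperone genes (10.0%), against 34 of the 10894 genes tested (0.312%) and 133 of all 27305 promoters (0.487%). Of the 6, HSPA6 was upregulated, DNAJB6 was downregulated and HSPA8, SERPINH1, CHORDC1 and DNAJA1 were not called. Over all 34 tested genes with the run, 6 were upregulated (17.6%, against 10.6% of all genes) and 4 downregulated (11.8%, against 10.2%). Their median log2 fold change was -0.01. Among upregulated genes with a promoter the run was found in 6 of 921 (0.651%), among those past a log2 fold change of 1 in 3 of 130 (2.31%) and among downregulated genes in 0.298%. The pair of units was found in 25.0% of chaperone promoters and in 9.85% of all genes tested, and in 10.6% of upregulated and 9.24% of downregulated genes. The windows of DNAJB1, HSP90AA1 and HSPE1 held neither pattern. A match is a description of letters and says nothing of binding in these cells.

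Immediate early genes, which are switched on within minutes of many stimuli without new protein synthesis, were called in both directions. Of 35 tested, 6 were upregulated (17.1%, against 10.6% of all genes) and 5 downregulated (14.3%, against 10.2%), with a median log2 fold change of -0.01, and 9 were lower with 5 groups in 1 model. FOS, a subunit of the transcription factor AP-1, was at 0.884, 1.10, 0.614 and 0.890 CPM in control libraries and 1.58, 1.48, 1.16 and 1.66 CPM in heat libraries. All heat libraries were above all control libraries, and the log2 fold change was 0.78 ± 0.20 (SE, adjusted p = 0.00898, edgeR). Its partner JUN rose by 0.39 ± 0.08 (SE), from between 11.4 and 13.8 CPM to between 14.8 and 17.7 CPM. GADD45B, a stress sensor upstream of MAP kinases, rose by 0.50 ± 0.06 (SE), from between 10.6 and 11.9 CPM to between 15.5 and 16.5 CPM. EGR3 (1.25) and IER5L (0.90) rose more at low levels and were named after their values were seen, as was PPP1R15A (0.16).

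MYC, a driver of growth in this leukemia, had the opposite sign. Its level was 497, 521, 523 and 517 CPM in control libraries and 401, 393, 398 and 410 CPM in heat libraries, a wide gap compared with the spread within the groups. The log2 fold change was -0.36 ± 0.03 (SE, adjusted p = 2.95e-07, edgeR). KLF10, KLF6 and ZFP36L1, the first 2 zinc finger transcription factors and the last an mRNA decay factor, were downregulated by log2 fold changes of -0.39, -0.30 and -0.35, and the anti-apoptotic MCL1 by -0.11, a call lost in 5 of 17 alternatives, among them total counts alone, upper quartile factors and leaving out control library 51 or heat library 68. EGR1 (-0.08), IER2 (-0.01), JUNB (0.03), ATF3 (0.05), DUSP1 (0.10) and IER5 (0.15) were not called.

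Of 24 genes of the unfolded protein and ATF4 response, 5 were downregulated (20.8%, against 10.2% of all genes) and 1 upregulated (4.17%, against 10.6%), with a median of -0.03. The number downregulated was 12 with 5 groups in 1 model and 8 with the GC curve removed. CHAC1, a glutathione-degrading enzyme induced by ATF4, showed the largest decrease among genes of at least 5 CPM whose libraries did not overlap. It stood at 16.2, 16.1, 15.4 and 16.5 CPM in control libraries and 8.99, 9.60, 10.3 and 9.81 CPM in heat libraries. The 4 heat libraries were all far lower, and the log2 fold change was -0.73 ± 0.06 (SE, adjusted p = 1.02e-06, edgeR). DNAJB9, a J-domain protein of the endoplasmic reticulum, fell by 0.63 on the log2 scale, and DDIT4, CANX and EDEM1 by 0.20, 0.20 and 0.13. ATF4 itself was called higher by 0.12, a call lost in the model with the 300 g groups and without control library 50, 51 or 52. None of 18 NRF2 antioxidant genes was called by edgeR with TMM scaling of these 8 libraries or by DESeq2, and 1 had an unadjusted p under 0.05. With 5 groups in 1 model 6 were lower, and 1 was higher with total counts alone, upper quartile or protein-coding factors, with the GC curve removed (which also gave 1 lower) and without control library 49. Of 18 p53 targets, DDB2 was called higher (0.17) and AEN lower (-0.09), and the call of AEN held in only 8 of 17 alternatives, being lost with total counts alone, upper quartile factors, protein-coding factors, the length curve and without control library 50, 51 or 52 or heat library 66 or 68. Of these 18 targets 6 were lower with 5 groups in 1 model, and each direction held 5.56% of them, against 10.6% and 10.2% of all genes.

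Of 26 genes of the T cell receptor complex and its proximal signalling, 7 were downregulated (26.9%, against 10.2% of all genes) and 2 upregulated (7.69%, against 10.6%), with a median of -0.02, and 13 were lower with 5 groups in 1 model. Of the 14 T-lineage markers, which overlap that list, 6 were downregulated (42.9%) and 1 upregulated (7.14%). The adhesion receptor CD2 fell from between 87.7 and 96.0 CPM to between 73.1 and 80.8 CPM, and CD3G, a signalling chain of the receptor, from between 283 and 313 CPM to between 232 and 257 CPM. Neither gene overlapped between the groups, and their log2 fold changes were -0.26 and -0.25. LCP2, CD28, CD3E, TRAC and GRAP2 fell by 0.22, 0.20, 0.18, 0.13 and 0.08, whereas the adaptor LAT and the kinase ZAP70 were called higher by 0.31 and 0.13. The call of LAT was lost without control library 50 or heat library 65 and that of ZAP70 with 5 groups in 1 model. CD40LG, the helper signal of T cells to B cells, fell from 6.29, 7.44, 6.81 and 5.75 CPM to 4.31, 3.56, 4.56 and 3.65 CPM (log2 fold change -0.71 ± 0.11, SE, adjusted p = 2.01e-04, edgeR). Of 14 NF-kB genes, TNFAIP3 (-0.25) and NFKB1 (-0.13) were downregulated (14.3%, against 10.2% of all genes) and none upregulated (against 10.6%), by edgeR and by DESeq2. At an unadjusted p under 0.05, 0 were higher, and with 5 groups in 1 model 7 were lower.

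Genes of RNA handling were called in both directions. Of 22 SR splicing factors and CLK kinases, 5 were upregulated (22.7%, against 10.6% of all genes) and 7 downregulated (31.8%, against 10.2%); the number upregulated was 3 with 5 groups in 1 model and without control library 50 or 52. CLK1, a kinase of SR proteins whose own intron retention is known to respond to heat, rose from between 15.9 and 18.5 CPM to between 20.4 and 22.7 CPM (0.29), and CLK3 by 0.16, whereas CLK4 was not called (0.02). SRSF4 and TRA2A had the largest decreases (-0.25 and -0.24). Of 24 stress granule proteins, 8 were downregulated and none upregulated by edgeR or DESeq2 (33.3% lower, against 10.2% of all genes; median -0.07; 16 lower with 5 groups in 1 model; 13 lower and 0 higher at an unadjusted p under 0.05), with PRRC2C (-0.41) and TARDBP (-0.26) the furthest. Of 30 genes of RNA polymerase II pausing and elongation, 8 were downregulated and none upregulated by edgeR or DESeq2 (26.7% lower, against 10.2% of all genes; median -0.05; 10 and 2 at an unadjusted p under 0.05), among them AFF1 (-0.25) and RTF1 (-0.22). Other settings gave up to 3 upregulated, and the number downregulated was 5 with total counts alone and 16 with 5 groups in 1 model. For 3′ end processing and termination, 2 of 25 were upregulated (8.0%, against 10.6%) and 6 downregulated (24.0%, against 10.2%); the Integrator subunit INTS6 rose by 0.43, and the cleavage factors CPSF3 and CSTF3 fell by 0.36 and 0.31. With total counts alone or upper quartile factors 7 of these 25 were higher and 5 lower, so the direction of that list depended on the scaling.

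For the remaining lists the shares are again to be read against 10.6% higher and 10.2% lower over all genes. Of 38 mitosis, kinesin and centromere genes 3 were upregulated (7.89%) and 4 downregulated (10.5%), with the proliferation marker MKI67 at -0.51 and CENPF at -0.33 (the latter not called by DESeq2), and BUB1B and CENPT at 0.15 (the call of CENPT was lost with 5 groups in 1 model and without control library 51 or 52 or heat library 68). Of 22 cohesin, condensin and CTCF genes 5 were downregulated (22.7%), including NIPBL (-0.27) and CTCF (-0.24), and the number was 3 with total counts alone, 8 without heat library 68, 9 without a filter and 10 with 5 groups in 1 model. The call of NIPBL was lost with total counts alone and without control library 49 or 51 or heat library 65, 66 or 67. Of 83 cytosolic ribosomal proteins 4 were upregulated (4.82%) and 2 downregulated (2.41%), of 77 mitochondrial ribosomal proteins 1 and 6, of 83 nuclear genes of oxidative phosphorylation 6 and 2, and of 31 proteasome subunits 0 and 3 (9.68% lower, against 10.2% of all genes; 0 higher by DESeq2 as well, and 0 and 7 at an unadjusted p under 0.05). The balance within these lists was not stable. With total counts alone or upper quartile factors the mitosis genes had 4 higher and 2 lower and the mitochondrial ribosomal proteins 3 and 3. With total counts alone 1 proteasome subunit was higher. With 5 groups in 1 model the cytosolic ribosomal proteins had 1 higher and 3 lower and the oxidative phosphorylation genes 4 and 11, and 13 mitosis genes, 11 proteasome subunits, 6 BCL2 family genes, 5 glycolytic enzymes and 5 ubiquitin and disaggregation genes were lower. Of 15 ubiquitin and disaggregation genes HDAC6 (0.16) was upregulated and PIAS4 (-0.18) downregulated, and of 17 BCL2 family genes BCL2 (-0.35) and MCL1 were downregulated. Of 17 glycolytic enzymes ALDOA was higher (0.17), HK2 lower (-0.20) and GAPDH was not called (0.03); the call of ALDOA held in only 7 of 17 alternatives, being lost in DESeq2, with RLE factors, without a filter, with 5 groups in 1 model and without control library 49, 51 or 52 or heat library 65, 66 or 67. Of 431 zinc finger genes 17 were upregulated and 53 downregulated (12.3%, against 10.2% of all genes).

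Ranked by increase, with an average over the 8 libraries of 5 CPM or more and no overlap between the groups, the first gene was ITGB1BP2 (chrX:71301750-71305371, plus strand), a muscle chaperone partner known as melusin. Its level was 2.11, 2.34, 2.11 and 2.46 CPM in control libraries and 7.91, 9.84, 6.47 and 7.95 CPM in heat libraries. The log2 fold change was 1.84 ± 0.13 (SE, adjusted p = 9.47e-08, edgeR). Its control libraries were all under 5 CPM, so it entered this ranking only through its heat libraries. It begins 0.228 kb past the end of NONO on the same strand, a gene at 871 CPM that was not called (log2 fold change -0.03). The next were C1QTNF6 (1.12), TSPOAP1 (1.12), SLC23A1 (1.12), the small nucleolar RNA gene SNORD3B-2 (1.11), PAQR6 (1.09), NPEPL1 (1.04) and the divergent transcript NFE2L1-DT (0.99). Under the same limits of level and overlap, the largest decreases after CHAC1 and CD40LG were those of SDCBP, a syndecan adaptor (-0.69), and PEX3, a peroxisome assembly factor (-0.60). The RNA-binding proteins TAF15 (-0.59) and HNRNPU (-0.58) came next. TAF15 fell from between 180 and 186 CPM to between 115 and 128 CPM and HNRNPU from between 681 and 730 CPM to between 446 and 500 CPM. Both gaps were several times the spread within a group.

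By RNA class (gene types of GENCODE 29), with TMM scaling, lncRNAs and TEC transcripts were called higher more often than lower, and protein-coding genes lower more often than higher. Of 1133 antisense lncRNAs 267 were upregulated (23.6%) and 19 downregulated, and of 875 intergenic lncRNAs 241 (27.5%) and 15, both with a median log2 fold change of 0.23. Of 216 TEC transcripts 56 were upregulated (25.9%) and 6 downregulated. Of 12222 protein-coding genes other than replication-dependent histones, 889 were upregulated (7.27%) and 1549 downregulated (12.7%), with a median of -0.01. Antisense lncRNAs took 0.379%, 0.379%, 0.376% and 0.382% of all counts in control libraries and 0.438%, 0.443%, 0.422% and 0.434% in heat libraries. Intergenic lncRNAs took 0.360% to 0.384% and 0.407% to 0.439%. For both classes all heat libraries lay above all control libraries, and the ratio of the mean shares was 1.15. The exact permutation test over libraries gave p = 0.0286 (two-sided), the smallest value that 4 against 4 allows, and 0.0514 after adjustment over the 18 classes.

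**Figure D2:**
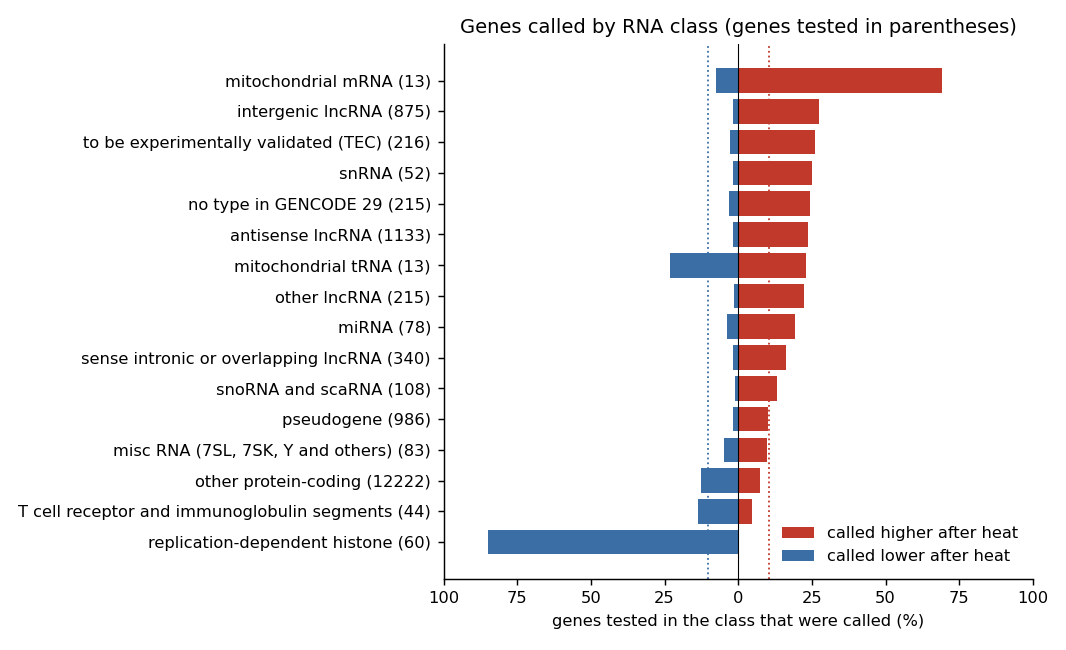
Share of the genes tested in each RNA class, in percent, that were called higher (right, red) or lower (left, blue) after heat, with the number tested in parentheses and classes in order of the share called higher. Dotted lines mark the shares over all genes tested, 10.6% higher and 10.2% lower; of the 60 replication-dependent histone genes 85.0% were lower and none was higher.

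Nuclear lncRNAs and host transcripts were part of this. Of 10 nuclear lncRNAs tested, 4 were upregulated (40.0%, against 10.6% of all genes) and none downregulated by edgeR or DESeq2 (4 higher and 3 lower at an unadjusted p under 0.05), with a median of 0.21. NEAT1, the scaffold of paraspeckles, rose from 36.8, 34.3, 34.5 and 39.9 CPM to 49.1, 55.4, 49.0 and 54.6 CPM (log2 fold change 0.52 ± 0.06, SE, adjusted p = 8.66e-06, edgeR). MALAT1, a speckle RNA, rose from between 463 and 571 CPM to between 599 and 655 CPM (0.33), and the lncRNAs KCNQ1OT1 and FTX by 0.61 and 0.38. Of 25 host genes of small nucleolar RNAs 9 were upregulated (36.0%, against 10.6% of all genes) and none downregulated by edgeR or DESeq2 (15 and 0 at an unadjusted p under 0.05), with SNHG12 (0.43) and SNHG1 (0.37) as examples. Of 31 microRNA host genes 11 were upregulated (35.5%) and 1 downregulated (3.23%); MIR17HG, the host of the miR-17-92 cluster, rose from between 32.7 and 38.7 CPM to between 55.5 and 63.7 CPM (0.72), and MIR29B2CHG fell by 0.55. Of RNAs named as LINC 54 of 244 were upregulated (22.1%) and 7 downregulated (2.87%), and of those named as antisense 102 of 510 (20.0%) and 12 (2.35%).

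Most calls among small nuclear and nucleolar RNAs were increases, but this depended on the correction for length. The 45 C/D box RNAs had 8 upregulated (17.8%, against 10.6% of all genes) and none downregulated, the 50 H/ACA box RNAs 4 (8.0%) and none, and the 8 Cajal body RNAs none and 1. That 1, SCARNA6 (-0.15), was called in 7 of 17 alternatives, being lost with total counts alone, upper quartile factors, protein-coding factors, no filter and without control library 49, 50 or 52 or heat library 65, 67 or 68. At an unadjusted p under 0.05 these were 8 and 1, 8 and 1, and 0 and 1, and DESeq2 called 7, 1 and 0 higher. SNORD3B-2, a copy of the U3 RNA that guides the first cuts of ribosomal RNA, had 21.4, 23.6, 22.3 and 22.8 CPM in control libraries and 47.2, 45.4, 53.5 and 48.8 CPM in heat libraries. Every heat library was far above every control library (log2 fold change 1.11 ± 0.05, SE, adjusted p = 2.62e-09, edgeR). Its neighbour copy SNORD3B-1 rose by 0.86, and because U3 copies share sequence, the level of each is uncertain. Of 50 spliceosomal snRNA genes 12 were upregulated (24.0%) and 1 downregulated (median 0.22). RNU4ATAC, an RNA of the minor spliceosome, rose from at most 2.45 CPM in control libraries to between 4.48 and 7.86 CPM in heat libraries (1.46), RNU6-8 from between 0.782 and 0.983 CPM to between 1.88 and 3.04 CPM, and RNU1-1 by 1.09 on the log2 scale, while RNVU1-4 fell by 0.69. These 4 were named after their values were seen, and most snRNA genes have near-identical copies. After a curve against exon length was removed, the calls were 4 higher and 3 lower for C/D box RNAs, 2 and 5 for H/ACA box RNAs and 9 and 3 for snRNAs.

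Replication-dependent histone genes fell as a family. These genes are transcribed in S phase, and their mRNAs end in a stem-loop in place of a poly(A) tail. Of 60 tested, 51 were downregulated (85.0%, against 10.2% of all genes) and none upregulated, as by DESeq2 (53 lower and 0 higher at an unadjusted p under 0.05), with a median log2 fold change of -0.29. The number downregulated was 50 to 53 under every alternative run. Together they took 3.06%, 3.31%, 3.30% and 3.26% of all counts in control libraries and 2.58% to 2.79% in heat libraries. The groups did not overlap, and the ratio of means was 0.826 (exact permutation p = 0.0286, adjusted p over classes 0.0514). Within the groups the histones moved together, since control library 49 was the lowest control for 55 of the 60 genes and heat library 67 the highest heat library for 51.

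H4C9, a histone H4 gene, fell from 413, 476, 472 and 464 CPM to 313, 301, 340 and 318 CPM, by 0.52 ± 0.04 on the log2 scale (SE, adjusted p = 7.29e-07, edgeR). H1-3, a linker histone, fell from 1751, 1837, 1875 and 1810 CPM to 1276, 1257, 1386 and 1340 CPM, by 0.47 ± 0.03 (SE, adjusted p = 1.66e-07, edgeR). Both were lower in every heat library than in any control library. By family, 4 of 5 H1, 12 of 13 H2A, 15 of 17 H2B, 9 of 11 H3 and 11 of 14 H4 genes were downregulated, with medians of -0.30, -0.29, -0.27, -0.37 and -0.24. The members furthest down in H2A, H2B and H3 among those called were H2AC20 (-0.45), H2BC11 (-0.44) and H3C3 (-0.43).

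**Figure D3:**
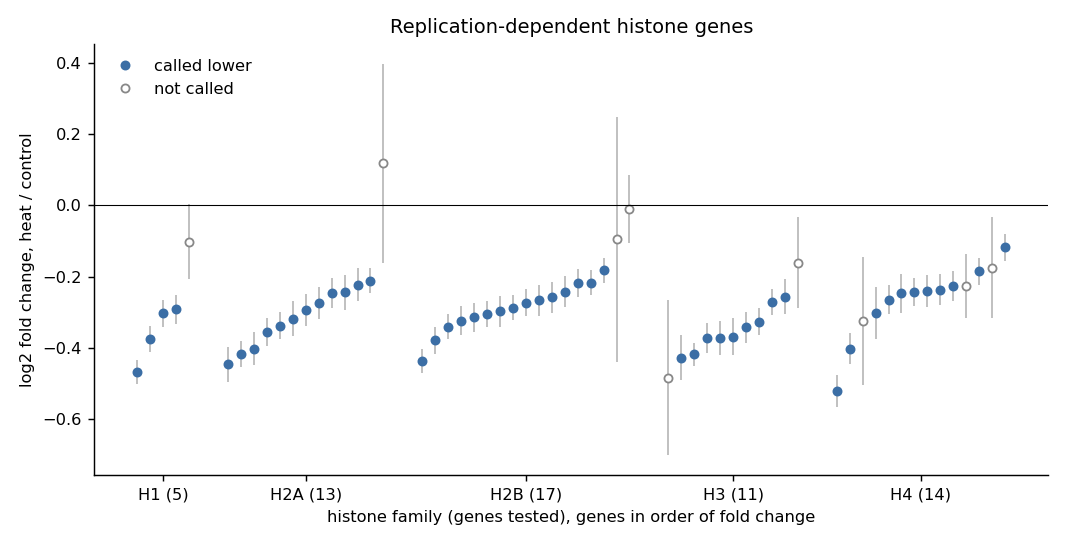
Log2 fold change between heat and control of the 60 replication-dependent histone genes tested, grouped by family and ordered within it, with bars of 1 standard error. Filled points are the 51 genes called lower and open points the 9 not called; 1 gene lies above 0 and it was not called.

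The stem-loop that sets these mRNAs apart is shown for 4 downregulated genes, in capitals with 5 bases on either side, as read from GENCODE 29 transcripts on GRCh38.
H4C9: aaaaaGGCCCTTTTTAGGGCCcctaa
H2BC21: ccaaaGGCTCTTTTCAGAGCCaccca
H4C2: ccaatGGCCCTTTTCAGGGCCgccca
H3C8: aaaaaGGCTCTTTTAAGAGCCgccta
A search for GG, 2 free bases, CTTT, 2 free bases, AG, 2 free bases and CC on the transcript strand found it in 28 of the 58 histone genes that had a transcript (48.3%), and in 127 other genes tested (0.776%). The form in H2BC21 was the most common, in 15 of the 28. With the stricter letters GGC, 1 free base, CTTT directly followed by TCAG, 1 free base and GCC it was found in 21 histone genes (36.2%), of which 17 were downregulated, beside 51 of all 60 (85.0%). The wider search matched 44.9% of the downregulated and 66.7% of the 9 histone genes not called, and the stricter one 34.7% and 44.4%. Outside the list the stricter form was found in 7 of 16372 genes (0.0428%). They were ENSG00000282988 (log2 fold change -1.16), HIST2H2AA3 (-0.44) and H2BC27P (-0.24), which were downregulated, and HIST2H2AA4 (-0.34), H2BC20P (-0.25), H2BC19P (0.15) and NOP58 (0.10), which were not called. These 7 were named after their values were seen. The histone list was drawn by newer symbols, so HIST2H2AA3 and HIST2H2AA4, H2A genes under older symbols, were left outside it. Annotated transcripts of the other histone genes may end before the stem-loop, so no match says only that the letters are not in the transcript used.

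The mitochondrial genome is transcribed from both strands into long precursors that are cut at the tRNAs. Mitochondrial mRNAs took 2.07% of counts in control and 2.38% in heat libraries on average, and 9 of 13 were upregulated (69.2%, against 10.6% of all genes). MT-ND6, the only mRNA of the minus strand, had 123, 134, 102 and 137 CPM in control libraries and 185, 199, 160 and 178 CPM in heat libraries. The heat libraries were all higher, and the log2 fold change was 0.55 ± 0.08 (SE, adjusted p = 8.67e-05, edgeR). MT-ND5 rose by 0.38, MT-ND2 by 0.27, MT-ND1 by 0.25 and MT-CO1 by 0.24, all of the plus strand, whereas MT-CO2 was called lower by 0.13, a call lost with upper quartile factors.

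Of the tRNA genes of the plus strand 3 of 6 tested were downregulated, and of those of the minus strand 3 of 7 were upregulated, against 10.2% and 10.6% of all genes. MT-TW, the tryptophan tRNA (chrM:5512-5579, plus strand), had 1.87, 2.09, 2.65 and 1.99 CPM in control libraries and 0.560, 0.437, 0.582 and 0.643 CPM in heat libraries. It was lower in every heat library (log2 fold change -1.96 ± 0.19, SE, adjusted p = 2.4e-06, edgeR). MT-TD and MT-TT, the aspartate and threonine tRNAs, were lower by log2 fold changes of -1.05 and -0.82. On the minus strand MT-TS1 (serine) rose by 1.31, MT-TE (glutamate) by 0.79 and MT-TQ (glutamine) by 0.48. Among tRNAs not called, MT-TA (-0.41), MT-TC (-0.34) and MT-TP (-0.22) of the minus strand and MT-TM (0.31) and MT-TV (0.21) of the plus strand had the other sign, and a difference between the strands was not tested. The tRNA genes were named after their values were seen. They are short and rare in these libraries, and with the exon length curve removed the calls over the mitochondrial genome were 8 higher and 8 lower, against 12 and 4.

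The share of upregulated genes differed with the position of the gene next to another. For each gene the nearest gene upstream on the same strand was found, and it was asked whether that gene had the higher CPM. Where such a higher gene ended within 1 kb before the start, 107 of 352 genes were upregulated (30.4%), and at 1 to 5 kb 252 of 849 (29.7%). The share fell to 15.5% at 5 to 20 kb, 9.25% at 20 to 100 kb and 8.52% beyond 100 kb. Where the upstream gene was not the higher of the pair, the shares were 17.4%, 10.3%, 8.54%, 7.16% and 4.85%. Genes with a higher neighbour are low genes more often, and some low genes passed the filter only through the heat libraries, so these shares are a description of the genes that passed. Among genes with a higher neighbour and under the median of all genes tested (12.0 CPM), the shares over the same distances were 35.9%, 34.8%, 18.0%, 11.0% and 9.53%, under the same filter. A higher gene ended within 5 kb upstream of 156 of the 379 genes past a log2 fold change of 1 (41.2%), of 46 downregulated genes (2.72%) and of 1201 of all genes tested (7.21%). The 156 genes had a median of 0.683 CPM and the 46 a median of 39.4 CPM, so these sets differed in level and their shares were not tested against each other. Of the 156 upstream genes themselves, 115 were not called, 26 upregulated and 15 downregulated, with a median log2 fold change of 0.03. Over all genes tested 10.6% were upregulated and 10.2% downregulated, so these neighbours were upregulated more often than genes at large. Of the 12 genes with the largest increase at 5 CPM or more, ITGB1BP2, TSPOAP1, SLC23A1, PAQR6 and SLC9A3-AS1 had such a neighbour (NONO, MIR142HG, MZB1, SMG5 and EXOC3).

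Single genes with low control counts are given as examples, named after their values were seen. RN7SL472P (chr14:102077180-102077472, minus strand), a pseudogene of the 7SL RNA that starts 3.27 kb past HSP90AA1, had 3, 5, 4 and 4 read pairs in the control libraries and 103, 83, 81 and 79 in the heat libraries (log2 fold change 4.47). TMEM95, 0.179 kb past KCTD11, had 3, 1, 1 and 1 read pairs and then 22, 25, 18 and 26. OLFML3, 1.52 kb past HIPK1, had 5, 3, 4 and 5 and then 58, 58, 43 and 52. These 3 passed the filter on low counts only through the heat libraries, so their values do not bear on how common such increases were. LHX3, a pituitary transcription factor 1.21 kb past QSOX2, and GPD1, a glycerol phosphate enzyme past SMARCD1, rose by 3.18 and 2.35 on the log2 scale, while QSOX2 and SMARCD1 were not called (-0.04 and -0.07). Reads were counted over exons as annotated, so reads of a transcript that runs on from the upstream gene and reads of the gene's own transcript cannot be told apart.

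Without the 4174 genes that overlap a gene on the same strand or lie within 5 kb past a higher one, an exclusion chosen after the data were seen, 1051 of 12481 genes (8.42%) were upregulated and 1396 (11.2%) downregulated. Antisense and intergenic lncRNAs were then still upregulated at 22.8% and 26.6%, and protein-coding genes at 5.25%. Gene span also went with direction. With genes in 5 bins of equal size, in the bin of the shortest (median 1317 bases) 18.4% were upregulated and 4.32% downregulated, and in that of the longest (median 134672 bases) 3.57% and 15.0%. By level, 14.5% of the bin with the lowest mean CPM were upregulated and 0.751% downregulated, and of the bin with the highest 6.30% and 22.8%. Span, level and RNA class go together, and their separate parts in the directions were not tested.

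**Figure D4:**
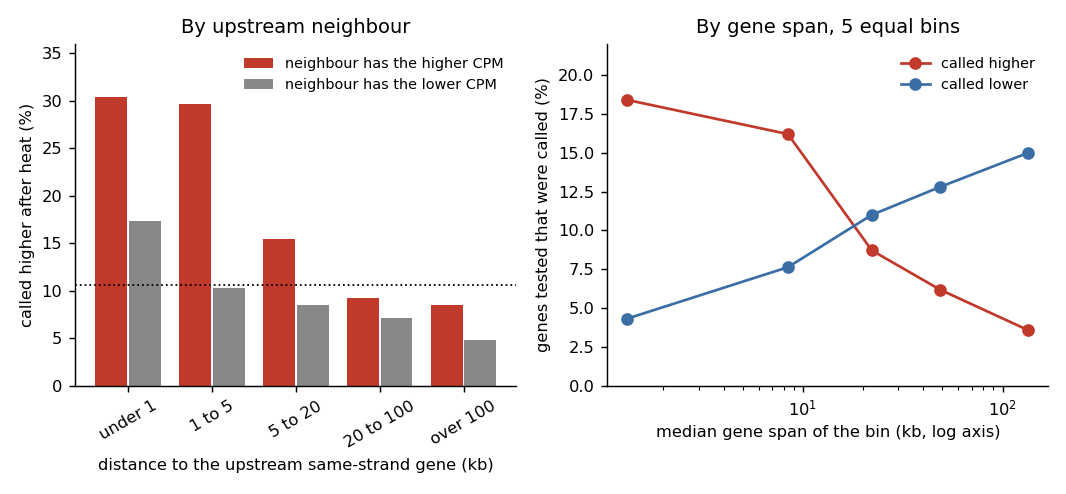
Left, share of genes upregulated by heat, in percent, by the distance in kb to the end of the nearest upstream gene on the same strand, for genes whose neighbour has the higher (red) or lower (grey) CPM; the dotted line is 10.6%, the share over all genes tested. Right, share of genes called higher (red) or lower (blue) in 5 bins of equal size by gene span, plotted at the median span of the bin in kb on a log axis; the shares run from 18.4% to 3.57% higher and from 4.32% to 15.0% lower.

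More genes were called between heat and 300 g than between heat and control. Between the 4 heat and 4 wait1min libraries, 6846 of 17489 genes were higher after heat (39.1%) and 7344 lower (42.0%). Most genes were thus called, while TMM scaling takes most genes as unchanged. Total counts alone and upper quartile factors were not run here, so the size and sign of smaller changes may depend on the scaling. Against wait1min, HSPA6 and HSPA1B were higher after heat by log2 fold changes of 2.10 and 1.32, SNORD3B-2 by 2.36 and H4C9 by 0.57. Lower after heat were HSP90AA1 (-1.44), HSPH1 (-1.49), MALAT1 (-3.10), MKI67 (-1.87) and CENPF (-3.70). All of these passed edgeR's quasi-likelihood test, with adjusted p-values from 3.96e-19 for MALAT1 to 5.67e-07 for HSPA6. CHAC1 (0.04) and FOS (0.23) were not called between heat and 300 g (adjusted p = 0.644 and 0.255, edgeR).

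The values against controls can be set side by side, but heat and wait1min share the control libraries, so no overlap between them is given. At 300 g 41.4% of 17155 genes were upregulated and 40.1% downregulated, and after 5 min at 9 g (hypg5 against its own 6 controls, Ctrl) 4.33% and 1.69% of 16284. The 300 g values were obtained with TMM scaling only, so smaller ones may depend on the scaling. For HSPA6 the log2 fold changes were 1.23 after heat, -0.97 after 300 g and -0.36 after 9 g, and for HSPA1B 0.63, -0.78 and 0.05. For HSP90AA1 they were 0.23, 1.57 and -0.32, and for H4C9 -0.52, -1.18 and 0.03. CHAC1 was at -0.73, -0.86 and 0.62, and MYC at -0.36, -0.82 and 0.15. Of the 9 g values only that of CHAC1 passed the test among these 6 genes. With a higher neighbour ending within 1 kb or at 1 to 5 kb upstream, 10.6% and 6.56% of genes were upregulated after 9 g, against 2.16% beyond 100 kb. Where the neighbour was not higher, the 9 g shares were close to these, 9.28%, 6.33% and 3.22%.

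**Figure D5:**
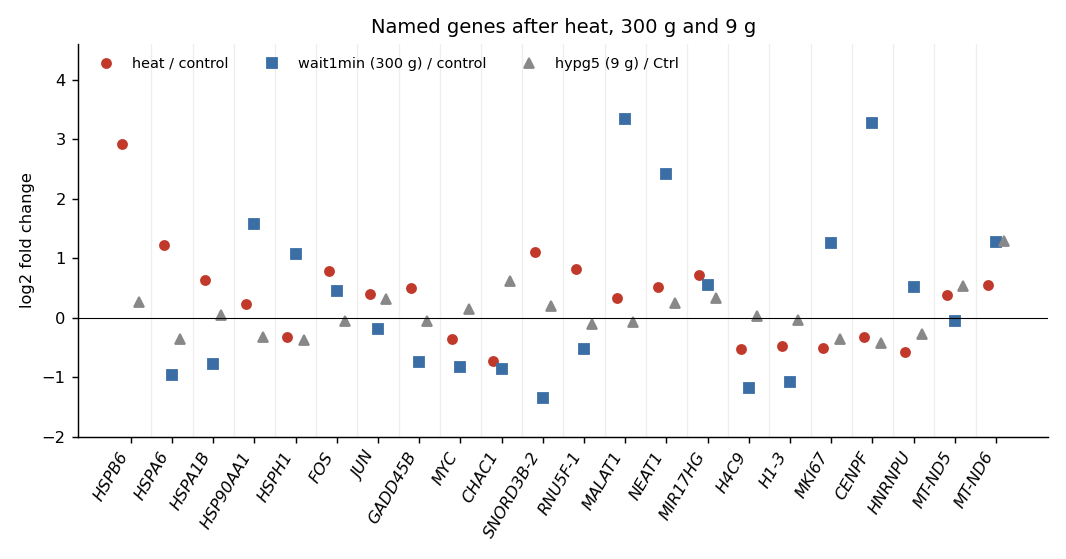
Log2 fold change of 22 named genes after heat against control (red circles), after 300 g against the same controls (wait1min, blue squares) and after 5 min at 9 g against its own controls (hypg5, grey triangles). With TMM scaling HSPA6 and HSPA1B lie above 0 after heat and below 0 after 300 g, and HSPB6 has no 300 g value because it was not tested there.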

How the data were processed

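Per the labels, RNA was sequenced from Jurkat cells as strand-specific libraries depleted of ribosomal RNA. The authors trimmed reads with Trim Galore 0.6.5, aligned them with STAR 2.7.3a to hg38 and deposited raw counts of read pairs per Ensembl 104 gene (featureCounts 2.0.1 in the submitters' notes). Of 60663 usable genes, 58395 had a GENCODE 29 type; 1 broken record was left out. Library 51 was deepest (41220541 counts), others were alike, so low genes have wide errors.

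Heat was compared with control, and with wait1min, by edgeR 4.0.16 (filterByExpr, minimum count 10, TMM, quasi-likelihood F test, Benjamini-Hochberg) in R 4.3.3, using only the groups compared, and tested on simulated data. Class shares were compared by exact permutation over 70 splits. Alternatives were other scaling factors, DESeq2 1.42.0, no filter, GC and length curves (lowess, span 0.3), 5 groups in 1 model and leaving out each library. Members and gene lists were chosen with earlier results of these data known. Named genes were the 12 largest changes per direction (5 noncoding) at 5 CPM or more without overlap, the chaperone lists, single stress genes and the 2 largest members of each other list; others are marked as named after their values were seen, as are the remaining called members of lists. A few genes of the lists are not reported here.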

Additional observations from a re-analysis of the deposited data

Results flagged for a closer look

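Dixon's test for 1 library far from the other 3 of its group was applied to 268 groups of 4 over the 134 named genes that were called, and 13 were flagged; about 5% of groups are flagged by chance. Control library 49 gave 8 of them. It was high for AFF1 (103 CPM, others 95.9 to 97.1), NIPBL (42.7 CPM, others 32.4 to 33.9), WASL (9.21 CPM, others 7.91 to 8.11), INTS6 (29.3 CPM, others 23.5 to 24.4), HSF2BP (7.03 CPM, others 6.04 to 6.20) and TMEM95 (0.102 CPM, others 0.0246 to 0.0354). It was low for DDB2 (39.5 CPM, others 40.6 to 40.7) and STIP1 (640 CPM, others 657 to 659).

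Control library 51 was high for RNU5F-1 (6.83 CPM, others 5.61 to 5.78). Heat library 66 was high for KCNQ1OT1 (27.0 CPM, others 18.2 to 19.0) and RPL17 (28.8 CPM, others 26.8 to 27.0). Heat library 67 was low for ENSG00000267078 (1.75 CPM, others 2.22 to 2.27). Heat library 68 was high for HSPH1 (87.7 CPM, others 78.1 to 78.8).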

How the results depend on the processing

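Every gene called both in the test as given and under another setting had the same sign (2505 to 3413 shared calls). Leaving out 1 library at a time gave 1334 to 1726 upregulated and 1275 to 1593 downregulated genes, 381 to 442 past a log2 fold change of 1 and 8 to 17 past -1. The other counts that moved by more than 1.5 times were 3941 downregulated genes with 5 groups in 1 model, 666 genes past 1 without a filter, and 22, 15 and 17 genes past -1 without a filter, with 5 groups in 1 model and with the exon length curve removed. Against wait1min 1801 genes were past 1 without a filter. Leaving out overlapping and close downstream genes, added after the data were seen, gave 1051 upregulated genes. Class shares without mitochondrial counts reached an adjusted p of 0.0476 by the exact permutation test. That is the smallest p of 4 against 4 (0.0286) adjusted over fewer classes than before, so it adds no evidence. The ratios were 1.15 for antisense, intergenic and miRNA genes, 1.07 for genes without a type and 1.09 for other lncRNAs and for pseudogenes. They were 0.828 for histones, 1.17 for sense intronic lncRNAs and 1.27 for TEC, and their cause was not tested. Genes under a few CPM are limited by depth. No paired analysis was possible because the library numbers run on from group to group and pair no libraries.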
